A study of Mus musculus with 24 samples.

Results

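The glucocorticoid receptor gene Nr3c1, its relative Nr3c2, the activating enzyme gene Hsd11b1 and 6 genes that glucocorticoids are known to induce (Tsc22d3, Dusp1, Fkbp5, Sgk1, Zbtb16 and Errfi1) were followed over the day in the mouse adrenal gland. All probe sets that the platform annotation assigns to these 9 gene symbols were taken, 22 of the 45101 on the array, of which 34958 carry a single symbol. The series holds 24 Affymetrix arrays of whole adrenals from wild type C57B/6J males aged 3 months. The mice lived for 2 weeks under 12 h light and 12 h dark, were then moved to constant darkness, and were sampled at 12 times, 38 to 82 h after the last lights-off. Subtracting 12 from these hours, modulo 24, gives the projected circadian times (CT) 2, 6, 10, 14, 18 and 22, with CT 0 to 12 the subjective day in which mice rest. All groups were wild type and the labels name no agent, so that the groups differ by time of collection, and the only reference for a time is the other times.

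Glucocorticoids such as corticosterone are made in the adrenal cortex under the control of pituitary ACTH, and in nocturnal rodents their blood level rises toward the onset of activity. The hormone binds the glucocorticoid receptor, which is held ready by the chaperone HSP90 and its partners, and the complex moves to the nucleus and acts on genes through glucocorticoid response elements. Several of the genes so induced feed back on the pathway: FKBP5 lowers the receptor's affinity for hormone, while GILZ (from Tsc22d3) and the phosphatase DUSP1 restrain inflammatory and MAP kinase signalling. The adrenal is unusual in that its own cells make the hormone and also carry the receptor.

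Promoter windows from RefSeq (GRCm38.p6), the 250 bases before each annotated start, were found for 7 of the 9 genes, 15 windows in all. The following windows are shown because they hold motifs for the receptor or for daily and stimulus-driven transcription, and because they belong to genes whose daily pattern is described further on. Capitals mark matches on either strand to the receptor hexamer TGTTCT, to the E-box CACGTG bound by clock factors, or to the cAMP response element TGACGTCA, and in the Sgk1 window also the full receptor palindrome with its 3 spacer bases.

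Tsc22d3, chrX:140600523-140600772, minus strand: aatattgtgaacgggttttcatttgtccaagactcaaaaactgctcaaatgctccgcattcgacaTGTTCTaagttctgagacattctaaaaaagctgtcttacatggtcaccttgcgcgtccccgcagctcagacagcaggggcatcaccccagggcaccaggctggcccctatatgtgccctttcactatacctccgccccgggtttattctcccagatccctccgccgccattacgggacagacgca

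Dusp1, chr17:26508473-26508722, minus strand: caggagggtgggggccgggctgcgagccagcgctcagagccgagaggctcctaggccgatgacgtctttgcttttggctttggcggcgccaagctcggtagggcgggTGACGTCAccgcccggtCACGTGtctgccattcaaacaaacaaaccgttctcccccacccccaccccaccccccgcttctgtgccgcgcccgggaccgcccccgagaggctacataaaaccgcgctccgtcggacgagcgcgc

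Fkbp5, chr17:28486150-28486399, minus strand: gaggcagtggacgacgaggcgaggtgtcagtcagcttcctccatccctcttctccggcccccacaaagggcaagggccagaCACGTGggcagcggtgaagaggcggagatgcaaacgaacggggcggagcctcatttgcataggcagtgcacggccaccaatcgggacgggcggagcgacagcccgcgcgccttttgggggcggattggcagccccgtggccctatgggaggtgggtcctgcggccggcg

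Sgk1, chr10:21993640-21993889, plus strand: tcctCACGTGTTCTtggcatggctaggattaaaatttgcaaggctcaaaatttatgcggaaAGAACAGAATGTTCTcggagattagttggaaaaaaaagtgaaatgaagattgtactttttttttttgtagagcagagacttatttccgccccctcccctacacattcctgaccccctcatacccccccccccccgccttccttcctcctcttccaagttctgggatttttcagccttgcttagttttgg

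Errfi1, chr4:150854820-150855069, plus strand: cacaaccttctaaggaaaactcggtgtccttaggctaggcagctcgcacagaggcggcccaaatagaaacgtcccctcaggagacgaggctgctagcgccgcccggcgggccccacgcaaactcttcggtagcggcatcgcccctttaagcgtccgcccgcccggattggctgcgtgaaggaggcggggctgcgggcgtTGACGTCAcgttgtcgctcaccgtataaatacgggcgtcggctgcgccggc

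Sgk1 has 6 windows, Tsc22d3 3 and Errfi1 2, and 1 of each is shown. The Sgk1 window shown holds the full palindrome (AGAACA, any 3 bases, TGTTCT) 189 to 175 bases before the start. This match was found in 3 of 32851 promoter windows of the same length (0.00913%), and in no other Sgk1 window. The Sgk1 window shown also holds an E-box 246 to 241 bases before the start, which overlaps another hexamer at 242 to 237. The hexamer is common, at 16.1% of all windows, and other Sgk1 windows hold it at 195 to 190 and at 13 to 8. In the Tsc22d3 window shown it lies 185 to 180 bases before the start, and the other windows of that gene hold none of these motifs. E-boxes were present in 6.02% of all windows. Among the windows of these genes they were present in 1 each of Sgk1, Dusp1 (126 to 121) and Fkbp5 (169 to 164). The cAMP response element was present in 1.55% of all windows, and in 1 each of Dusp1 (143 to 136) and Errfi1 (51 to 44). A D-box, TTATGNAA, was present in 3.07% of all windows and, among these genes, in that of Hsd11b1, 124 to 117 bases before the start. A match describes these letters and is not evidence of binding.

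Several arrays share a source or stand apart. In 6 pairs of arrays the deposited values agreed within 5% at every probe set with a signal of 50 or more (SD of the log2 ratio at most 0.0418, against 0.217 to 0.516 in 30 other pairs of one CT). Each such pair, 5 of them 24 h apart, was averaged and counted once, which left 18 profiles, 3 for each CT. The labels name no animals, so that p-values measure the spread between these profiles, which may be technical. All 8 arrays of CT 10 and 18 had a control signal (ThrX-3) of 513 to 1858, against 56.4 to 101 on the other 16, and an 18S ribosomal RNA signal of 606 to 2652 against 5150 to 6357. They are called the second array batch. CT and batch cannot be told apart for a level at CT 10 or 18 set against the other times, so each rhythm was fitted in 3 ways: with no term for the batch, with the batch as a block, and in the 12 profiles of the first batch alone (CT 2, 6, 14 and 22). The profile of 78 h replicate 2 (CT 18) had a ratio of 5' to 3' Gapdh signal of 0.0386, where the next lowest was 0.822. This ratio compares probes at both ends of 1 transcript and is used as a measure of RNA integrity. The summed signal of 7 cortex markers was 68200 to 71300 in the first batch and 58700 to 68660 in the second, and that of 5 medulla markers 32800 to 41580 and 32060 to 39570, so both layers of the gland were present throughout. The summed signal of 6 skeletal muscle markers was 451 to 554 in the first batch and 425 to 29880 in the second. That of 6 liver markers was 1165 to 2893 and 1871 to 18680, the last in 78 h replicate 2, and that of 4 fat markers 10280 to 20370 and 12010 to 21070. Endothelium markers summed to 4553 to 5697 in the first batch and 3125 to 4133 in the second, without overlap. Immune cell markers summed to 3680 to 6615 and 5670 to 6813, and red blood cell markers to 401 to 625 and 593 to 1468. The part of these tissues and cells in the differences reported was not tested.

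Of the 22 probe sets 19 had a mean signal above the filter at 183, the 40th percentile, and were tested among 27022 on the array with adjustment over all of them. Probe sets below it were 1421866_at and 1431378_at of Nr3c1 (signals 23.9 to 169 and 19.9 to 52.4) and 1447736_at of Fkbp5 (0 to 34.0), and their adjusted p in a fit without the filter was 0.40, 0.30 and 0.24. A 24 h cosine was called (limma, Benjamini-Hochberg adjusted p below 0.05) for 2 of the 19, or 10.5%, one probe set of Tsc22d3 and the probe set of Dusp1, where 10.2% of all probe sets tested were called. This share was near that of the array as a whole. With the batch as a block it was 6 of 19 against a background of 16%, and within the first batch 6 of 19 against 10.1%. The median amplitude (the height of the fitted curve above its mean, in log2 units) was 0.17 over the 19 and 0.12 over all probe sets, and with the block 0.19 against 0.10. Any difference over the 6 CT was called for 10 of 19 (52.6%), against 52.9% of the array, a background that includes the batch. Over the 4 CT of the first batch it was called for 7 of 19 (36.8%), of Tsc22d3, Dusp1, Fkbp5 and Nr3c2, against 8.54%. These shares describe probe sets of few genes, several of them measured by more than 1 probe set.

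**Figure D1:**
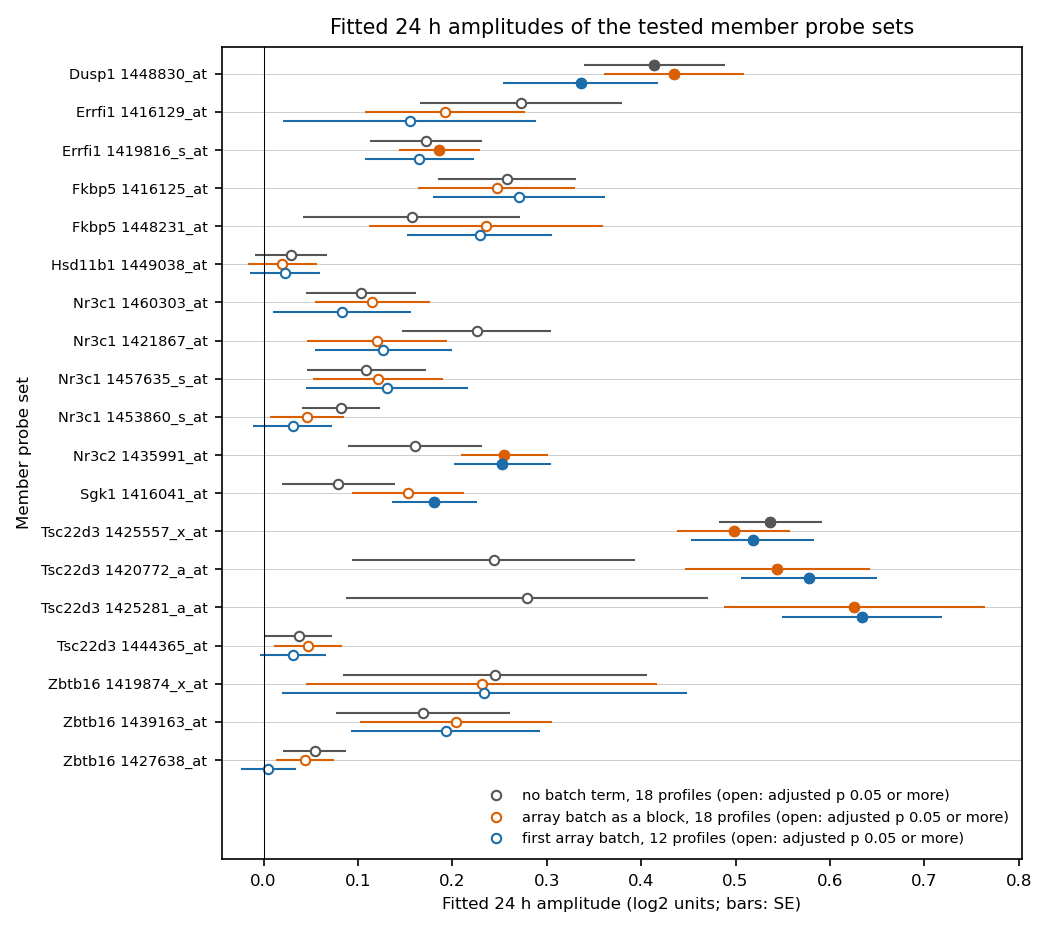
Fitted 24 h amplitude in log2 units (horizontal axis) with its SE for each of the 19 tested probe sets (vertical axis), from the fits with no batch term, with the array batch as a block, and on first-batch profiles alone. Filled points have an adjusted p below 0.05. Tsc22d3 1425557_x_at and Dusp1 1448830_at are filled in all 3 fits, and Nr3c2, Sgk1, Errfi1 1419816_s_at and Tsc22d3 1420772_a_at and 1425281_a_at in 1 or 2 of them.

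The transcripts of each receptor are described in turn, and no test compared the receptors with each other. Nr3c1, the glucocorticoid receptor itself, had no probe set with a called rhythm in any of the 3 fits. Its probe set 1460303_at read 678 to 1136 over the 18 profiles, with a fitted amplitude of 0.10 ± 0.06 (SE, n = 18 profiles; adjusted p = 0.40). Its 3 profiles at CT 22, at 677.5, 838.6 and 1044, spread over nearly the whole range, and the values of CT 14 (911.5, 1054 and 1136), the highest CT by mean, overlapped with them. The probe set 1457635_s_at followed it (r = 0.92 over the 18 profiles, each batch centred on its own mean), between 399 and 737, with an amplitude of 0.11 ± 0.06 and an adjusted p of 0.41. A further probe set, 1453860_s_at, stayed between 176 and 250 (amplitude 0.08 ± 0.04, adjusted p = 0.32).

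The probe set 1421867_at of Nr3c1 was called for a difference over the 6 CT (adjusted p = 0.0064) but not for a cosine (amplitude 0.23 ± 0.08, adjusted p = 0.14). It read 870.9, 708.2 and 1013 at CT 18, of which the last is 78 h replicate 2, and 424.9, 489.1 and 651.4 at CT 22. The values at CT 18 were all above those at CT 22. Its level was on average 0.41 log2 units higher in the second batch. Within the first batch the difference was not called (adjusted p = 0.26), nor was CT 18 against 10 within the second (0.20 ± 0.15 log2, adjusted p = 0.49).

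Nr3c2 encodes the mineralocorticoid receptor, which binds corticosterone with high affinity and, in cells that inactivate corticosterone, answers to aldosterone. Its single probe set 1435991_at read 317.4, 320.9 and 296.0 at CT 2, and 294.9, 253.0 and 325.6 at CT 6. At CT 14 it read 216.1, 217.3 and 202.5, and at CT 22 201.3, 270.1 and 243.3. The 3 values at CT 14 lay below all of CT 2 and CT 6. In the second batch it read 394.4, 325.0 and 351.7 at CT 10 and 269.2, 325.4 and 280.3 at CT 18, a mean 0.26 log2 units above the first batch. Without a batch term the cosine was not called (amplitude 0.16 ± 0.07, adjusted p = 0.25). With the block it was, at 0.25 ± 0.05 with a peak at CT 4.3 ± 0.7 (SE, adjusted p = 0.0037), and likewise within the first batch (0.25 ± 0.05, CT 4.3; adjusted p = 0.017). The difference CT 18 minus 10 was -0.25 ± 0.12 log2 (adjusted p = 0.27). The signals lay not far above the filter of 183, so that the log2 scale with its offset of 51 understates ratios here. In whole tissue fewer cells of a type and less RNA per cell cannot be told apart, for this gene and for all that follow.

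Hsd11b1 encodes the reductase that regenerates active glucocorticoid from its inert keto form, and it is abundant in liver and fat. Its probe set 1449038_at read between 3093 and 4077, had an amplitude of 0.03 ± 0.04 (adjusted p = 0.82), and was called in none of the tests. The highest value, 4077, was that of 78 h replicate 2, the profile with the highest liver marker sum and the lowest Gapdh ratio. The profile of 54 and 78 h replicate 1, with the next highest signal of the liver marker Alb, read 3518. The part of liver or RNA integrity in these values was not tested. On average Hsd11b1 was 1.13-fold higher at CT 10, the highest CT, than at CT 14, the lowest.

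Tsc22d3 encodes GILZ, the glucocorticoid-induced leucine zipper protein, and was the member with the largest fitted rhythm. Probe set 1425557_x_at read 1668, 1694 and 1670 at CT 2 and 1302, 1279 and 1700 at CT 6. It read 2378, 2630 and 2581 at CT 10, 3118, 2925 and 3035 at CT 14, and 2692, 2668 and 3156 at CT 18. At CT 22 it had come back to 1788, 1727 and 1987. All 9 profiles of CT 10, 14 and 18 thus lay above all 9 of CT 22, 2 and 6, with CT 6 lowest, while CT 14 and CT 18 overlapped. The mean was 11.59 ± 0.05 log2 at CT 14 and 10.52 ± 0.22 at CT 6 (SD, n = 3), a 2.1-fold difference. The fitted amplitude was 0.54 ± 0.06 (SE) with a peak at CT 15.1 ± 0.4, and the adjusted p was 5.4e-05. The block left the amplitude at 0.50 ± 0.06 (CT 15.2, adjusted p = 0.00013), and the first batch alone gave 0.52 ± 0.07 (CT 15.6, adjusted p = 0.0013). On this probe set Tsc22d3 was highest in the first part of the subjective night, somewhat after the clock gene Per2 (peak at CT 13.7 ± 0.3).

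Other probe sets of Tsc22d3, 1420772_a_at and 1425281_a_at, had the same pattern within the first batch and another in the second. Probe set 1420772_a_at read 3125, 2961 and 3336 at CT 14. It read 1638, 1519 and 1635 at CT 2, 1187, 1279 and 1608 at CT 6, and 1726, 1577 and 1868 at CT 22, all below every value at CT 14. At CT 10 it read 1300, 1767 and 1439, and at CT 18 1468, 899.5 and 1084, where 1425557_x_at was high. Without a batch term it therefore had no called cosine (amplitude 0.24 ± 0.15, adjusted p = 0.45). Within the first batch the amplitude was 0.58 ± 0.07 with a peak at CT 15.3 (adjusted p = 0.0013), and with the block 0.54 ± 0.10 at CT 13.9 (adjusted p = 0.0038).

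Probe set 1425281_a_at behaved likewise, with 1671, 1697 and 2093 at CT 14 against 591.0 to 947.6 over the other CT of the first batch. In the second batch it read 734.2, 951.4 and 754.6 at CT 10 and 792.2, 427.0 and 292.0 at CT 18, the lowest in 78 h replicate 2. Its amplitude was 0.28 ± 0.19 without a batch term (adjusted p = 0.52), 0.63 ± 0.14 with the block (adjusted p = 0.014) and 0.63 ± 0.08 within the first batch (adjusted p = 0.0020). Leaving out 78 h replicate 2 with the block gave 0.54 (adjusted p = 0.0030) for 1420772_a_at and 0.61 (adjusted p = 0.0030) for 1425281_a_at. The fourth probe set, 1444365_at, stayed between 268 and 356 (amplitude 0.04 ± 0.04, adjusted p = 0.71). Among the Tsc22d3 probe sets, then, 3 had the same high point at CT 14 within the first batch and 1 was flat.

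**Figure D2:**
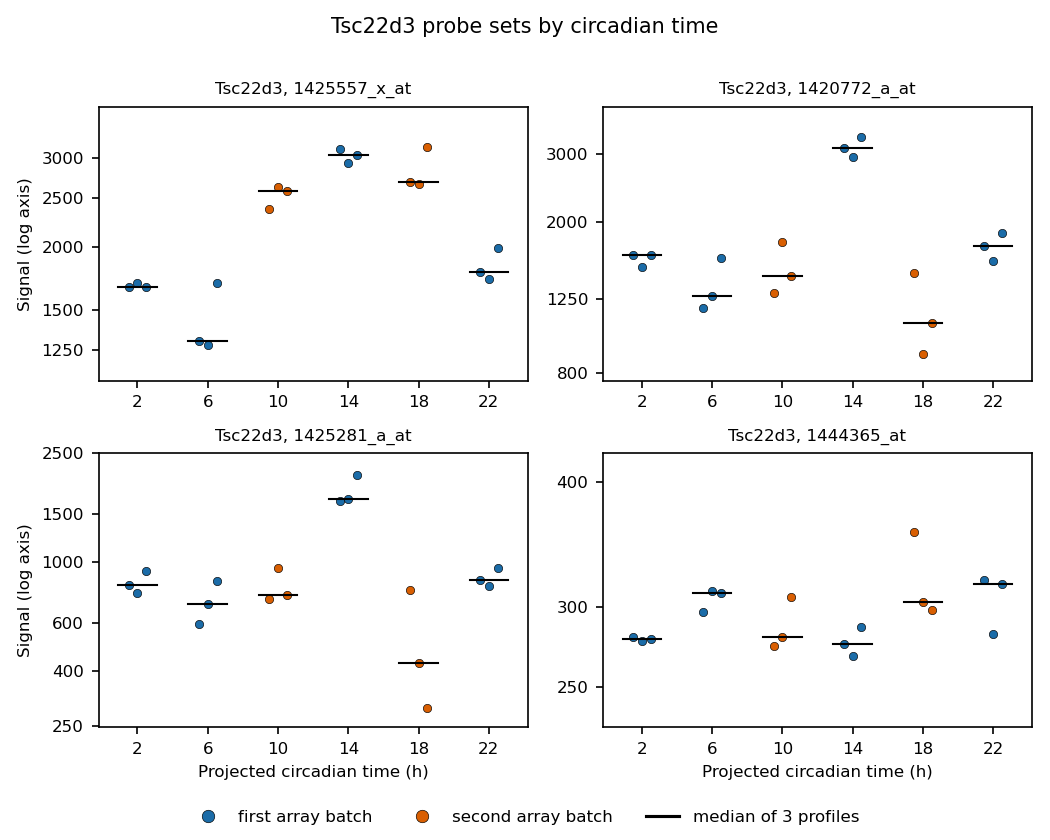
Signal of the 4 Tsc22d3 probe sets (vertical, log axis) against projected circadian time (horizontal, h), each point a profile and each bar the median of 3, with the second array batch (CT 10 and 18) in orange. Values at CT 14 of 3 of the probe sets are at or near the top, while at CT 10 and 18 1425557_x_at is high and 1420772_a_at and 1425281_a_at are low.

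The disagreement between probe sets moved with the array batch. The log2 ratio of 1425557_x_at to 1420772_a_at averaged 0.04 in the first batch, 1.02 in the second, and 1.5 in 78 h replicate 2. For 1425557_x_at over 1425281_a_at it averaged 0.92, 2.03 and 3.23. A probe set name ending in x marks probes that may also match other transcripts, and one ending in a marks probes shared by transcripts of one gene. The Gapdh ratio was low in the same profiles (above 1.03 in the first batch, 0.0386 to 0.978 in the second), and its part in the result was not tested. A permutation test (100000 permutations, two-sided) of a 24 h cosine on the ratio did not call either pair (adjusted p = 0.57 for both, 0.18 and 0.16 when profiles were permuted within batches). It asks only whether the ratio follows a cosine, and its form within batches removes a shift between batches. It therefore cannot decide whether these pairs differ by batch. Pairs of tested probe sets of the same gene numbered 17, from Tsc22d3, Nr3c1, Fkbp5, Zbtb16 and Errfi1. The test called a cosine for 1 of them, 1425557_x_at against the flat 1444365_at of Tsc22d3 (share of variance explained 0.79, adjusted p = 0.0015). Within batches the test called 3 pairs, each of the other Tsc22d3 probe sets against 1444365_at (adjusted p = 0.025 for each). These 3 probe sets correlated with one another at r = 0.85, 0.68 and 0.94 over the 18 profiles, each batch centred on its mean.

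Dusp1 encodes a phosphatase that inactivates MAP kinases and is induced both by glucocorticoids and by many acute stimuli. Its probe set 1448830_at read 2502, 2032 and 2472 at CT 2, 1812, 2793 and 2050 at CT 6, and 2983, 1972 and 2960 at CT 10. It read 1815, 1634 and 1496 at CT 14, 1342, 1363 and 1484 at CT 18, and 1587, 1458 and 1648 at CT 22. Levels were high through the subjective day with a wide spread, and low with a narrow spread through the subjective night. The day times overlapped with one another. Of the night times, all values of CT 14 lay above all of CT 18, and CT 22 overlapped with both, while 1 night value (1815 at CT 14) lay above 1 day value (1812 at CT 6). The amplitude was 0.41 ± 0.07 with a peak at CT 6.6 ± 0.7 (adjusted p = 0.0056), 0.43 ± 0.07 at CT 6.2 with the block (adjusted p = 0.0022), and 0.34 ± 0.08 at CT 5.6 within the first batch (adjusted p = 0.044). Its mean did not move with the batch (0.003 log2 units higher in the second). Dusp1 thus peaked in the subjective day, and Tsc22d3 1425557_x_at in the subjective night.

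Within the second batch Dusp1 fell by 0.87 ± 0.16 log2 from CT 10 to CT 18 (adjusted p = 0.026), the only call among the 19 probe sets, where 5.54% of the array was called. The muscle marker Acta1 was above 1000 in 2 profiles of each of these CT. The adjusted p rose to 0.14, 0.076 and 0.12 without 46 h replicate 1, the profile of 54 and 78 h replicate 1, and that of 70 h, with differences of -0.77, -0.84 and -0.78. Without 78 h replicate 2 the difference was -0.91 (adjusted p = 0.022).

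Fkbp5 encodes the HSP90 co-chaperone that damps the receptor and is among its most responsive targets. Probe set 1416125_at read 2351, 2478 and 2449 at CT 14 and 2446, 2386 and 2091 at CT 18. It read 1246, 1493 and 1625 at CT 22, 1995, 1864 and 1942 at CT 2, and 1459, 1509 and 2075 at CT 6. All 3 values at CT 14 lay above every first-batch value of the other CT. Values at CT 10 were 1868, 2070 and 2031. The difference over the CT was called over all 6 (adjusted p = 4.8e-04) and over the 4 of the first batch (adjusted p = 0.013). The cosine was not (amplitude 0.26 ± 0.07, peak CT 14.1, adjusted p = 0.067; 0.11 with the block and 0.15 in the first batch). After quantile normalization its adjusted p was 0.046 at the same amplitude.

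The probe set 1448231_at was likewise highest at CT 14 (689.6, 769.1 and 885.5) and lowest at CT 22 (457.0, 526.9 and 507.0), and its difference was called over the first batch (adjusted p = 0.019) and not over all 6 CT (adjusted p = 0.35). At CT 18 it read 696.0, 799.8 and, in 78 h replicate 2, 243.1, so that 1 profile set the spread there. Its cosine was not called (amplitude 0.16 ± 0.12, adjusted p = 0.56). On both probe sets Fkbp5 was 1.65-fold and 1.51-fold higher at CT 14 than at CT 22 by their means.

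Sgk1 encodes a kinase that promotes sodium uptake and cell survival. Its probe set 1416041_at read 3942, 3598 and 3102 at CT 14, against 2796, 2610 and 2962 at CT 6, 3491, 2988 and 2958 at CT 22, and 2368, 3148 and 2475 at CT 18. Values were 2943, 2660 and 3042 at CT 2 and 3241, 3283 and 2688 at CT 10. A difference was called neither over all CT (limma, adjusted p = 0.059) nor over those of the first batch (adjusted p = 0.099). Within the first batch the cosine was called at an amplitude of 0.18 ± 0.04 and CT 16.2 (adjusted p = 0.048). Over all profiles it was 0.08 ± 0.06 (adjusted p = 0.58), and the block gave 0.15 ± 0.06 (adjusted p = 0.18). Over all tested probe sets of the array the median amplitude was 0.12 without a batch term, 0.10 using the block and 0.09 for first-batch profiles. The Sgk1 amplitude lay below the median in the first of these fits and above it in the others. The part of the full palindrome of the Sgk1 window in these amplitudes was not tested.

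Zbtb16 encodes the transcriptional repressor PLZF, a strong glucocorticoid target in several cell types. Its probe set 1419874_x_at had a wide spread within some CT, with 727.0, 923.3 and 1831 at CT 6 and 673.5, 1740 and 1220 at CT 22, against 2259, 2118 and 2089 at CT 14. At CT 2 it read 1827, 2473 and 1911, of which 2473 was its highest value. Readings were 1977, 1949 and 1612 at CT 10 and 1465, 1665 and 2078 at CT 18. It was called for a difference over the 6 CT (adjusted p = 0.030) and not over the 4 of the first batch (adjusted p = 0.11), and its cosine was not called (amplitude 0.24 ± 0.16, adjusted p = 0.49). The probe set 1439163_at ranged with it (r = 0.70) from 401 to 873 (amplitude 0.17 ± 0.09, adjusted p = 0.37). The third, 1427638_at, stayed between 302 and 388 (adjusted p = 0.45) and did not follow the others (r = -0.08 and -0.21).

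Errfi1 encodes MIG6, a feedback inhibitor of the EGF receptor. Probe set 1416129_at read 1585, 1570 and 1497 at CT 10, above every profile of the other CT, and its level was on average 0.51 log2 units higher in the second batch. It was called for a difference over the 6 CT (adjusted p = 0.012) and not within the first batch (adjusted p = 0.53), and its cosine was not called (amplitude 0.27 ± 0.11, adjusted p = 0.19; 0.26 with the block). The probe set 1419816_s_at was also highest at CT 10 (596.1, 615.9 and 631.4) and lowest at CT 22 in the mean, and was called for a difference over the 6 CT (adjusted p = 0.0034). Its cosine was called with the block (0.19 ± 0.04, CT 6.4, adjusted p = 0.018), and not without it (0.17 ± 0.06, adjusted p = 0.13) or within the first batch (adjusted p = 0.17). Without the 4 profiles with Acta1 above 1000 the block gave 0.17 (adjusted p = 0.090).

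**Figure D3:**
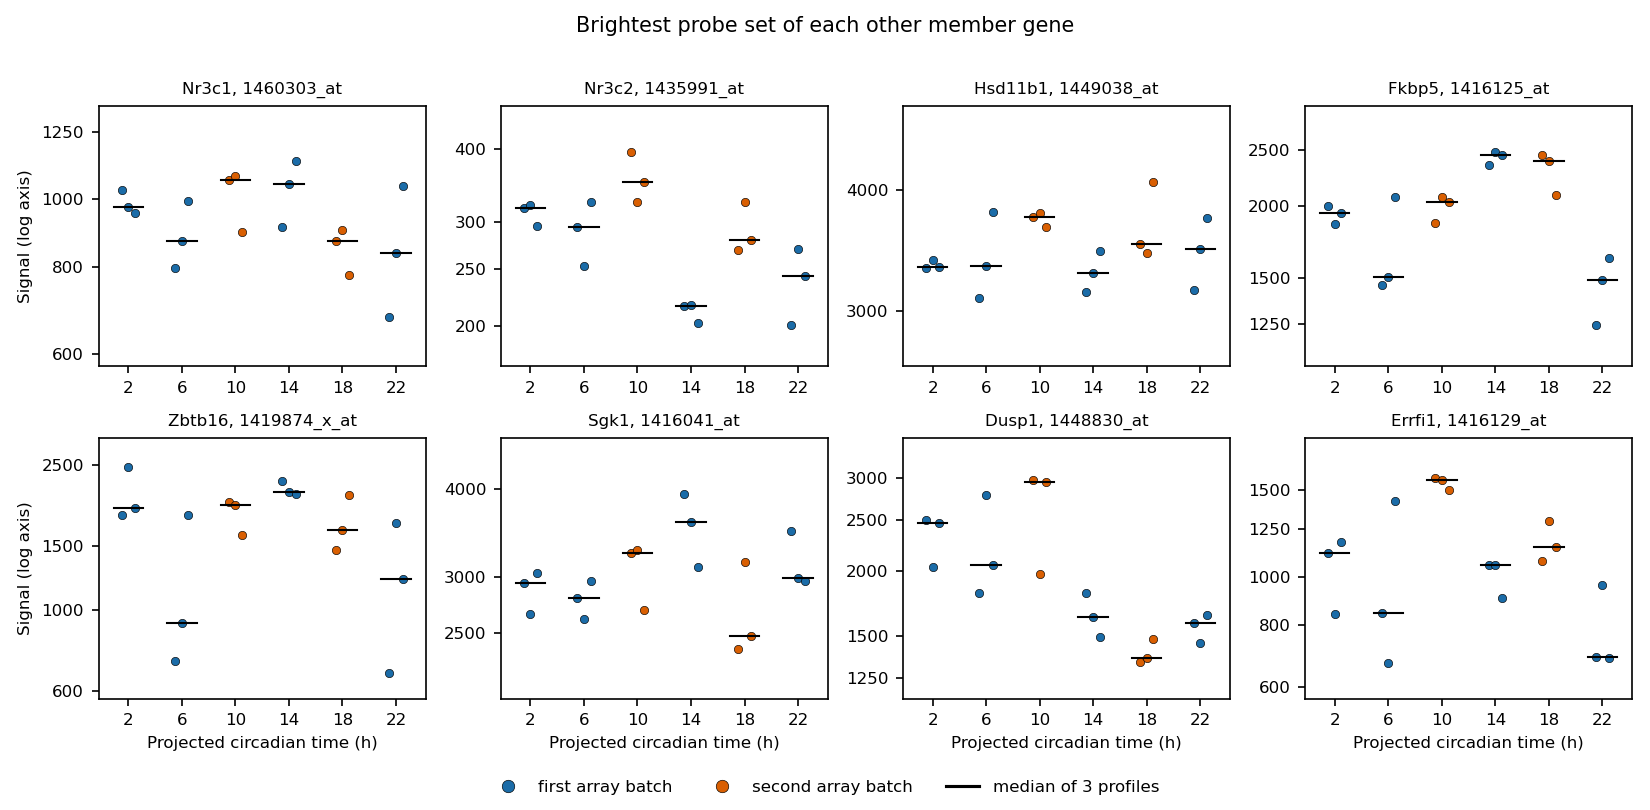
Signal of the probe set with the highest mean of each of the other 8 genes (vertical, log axis with a range of its own for each panel) against projected circadian time (horizontal, h), each point a profile and each bar the median of 3, with the second array batch (CT 10 and 18) in orange. Dusp1 is high at CT 2 to 10 and low at CT 14 to 22, Fkbp5 is high at CT 14 and 18, Nr3c2 is low at CT 14 and 22, and Hsd11b1 lies between 3093 and 4077 throughout.

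A 12 h component beside the 24 h terms, which would mark a pattern with 2 highs a day, was called for 0 of the 19 probe sets (limma; 6 at an unadjusted p below 0.05), where 0.263% of the array was called. The largest values were those of Tsc22d3 1425281_a_at (0.60, adjusted p = 0.10) and 1420772_a_at (0.48, adjusted p = 0.082), the probe sets whose levels at CT 10 and 18 were low on both sides of CT 14. These CT are the second array batch, whose mean minus that of the first was -0.64 and -0.49 log2 units for these probe sets. The fit had no batch term, so a batch difference and a 12 h pattern cannot be told apart in it.

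Other genes known to be induced through the receptor were read from a list of 29, of which 28 were tested, each by the probe set with its highest mean. A rhythm was called for 8 of 28 (28.6%), where 10.2% of the array was called. The median amplitude was 0.23 over the 28 against 0.12 over all tested probe sets of the array. Shares and medians of the array, here and for the lists that follow, cover every tested probe set and not 1 per gene. Of the 8, 4 peaked in the subjective day and 4 in the subjective night, so the called genes did not share a phase. With the block 9 were called (16% of the array), within the first batch 5 (10.1% of the array), and 4 in all 3 fits. On the day side, Klf9, a transcription factor gene, had an amplitude of 0.39 ± 0.05 at CT 7.5 (adjusted p = 7.7e-04), and Per1, a clock gene that glucocorticoids also induce, 0.74 ± 0.14 at CT 9.9 (adjusted p = 0.010). Both were also lower at CT 18 than at CT 10, with log2 differences of -0.86 for Klf9 and -1.76 for Per1 (adjusted p = 0.0067 for each). The metabolic enzyme genes Pdk4 (CT 8.3) and Pck1 (CT 9.7) peaked in the same part of the day, with amplitudes of 0.87 ± 0.22 and 0.84 ± 0.20 (adjusted p = 0.038 and 0.029). Neither was called within the first batch (adjusted p = 0.10 and 0.080).

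On the night side, close to Tsc22d3, lay Mertk, a receptor for the uptake of dying cells (0.30 ± 0.06, CT 13.96, adjusted p = 0.0070), and Fam107a, a stress-induced actin-binding protein gene (0.58 ± 0.11, CT 14.1, adjusted p = 0.0075). Sult1a1, a sulfotransferase gene, peaked at CT 16.3 (0.38 ± 0.07, adjusted p = 0.0057) and the cell cycle inhibitor Cdkn1a at CT 23.5 (0.41 ± 0.07, adjusted p = 0.0027). Among well-known targets that did not pass were Nfkbia, the inhibitor of NF-kappaB (amplitude 0.05, adjusted p = 0.81), the metallothionein gene Mt2 (0.32, adjusted p = 0.105) and the mTOR inhibitor Ddit4 (0.05, adjusted p = 0.97). Per1 and Fam107a did not pass within the first batch alone (adjusted p = 0.054 and 0.050).

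Of the chaperones and coregulators of the receptor 28 were listed and 22 tested, and 6 had a called rhythm (27.3%, against 10.2% of the array). The called genes include the clock genes Cry1 and Cry2. The median amplitude over the 22 was 0.19 against 0.12. The block gave 9 (16% of the array), the first batch alone 8 (10.1% of the array), and 5 passed all 3 fits. The clock repressor Cry1, which also binds the receptor and limits its activity, had 1.28 ± 0.09 at CT 18.1 (adjusted p = 1.5e-06), and Cry2 0.42 ± 0.07 at CT 12.8 (adjusted p = 0.0020). The 3 chaperone genes that were called peaked between CT 17.8 and 19.9. Fkbp4, the co-chaperone that promotes receptor transport and competes with FKBP5, had 0.52 ± 0.12 at CT 19.9 (adjusted p = 0.021) and was higher at CT 18 than at CT 10 (1.26 log2, adjusted p = 0.0050). Hsp90aa1 (0.19 ± 0.04, CT 19.2, adjusted p = 0.013) and Hspa8 (0.13 ± 0.02, CT 17.8, adjusted p = 0.0079), of the HSP90 and HSP70 families, had small amplitudes. Stip1, which links the HSP70 and HSP90 machines, was called with the block (0.31, adjusted p = 0.0011) and not without it (0.26, adjusted p = 0.19). The coactivator gene Ncoa2 peaked at CT 4.1 (0.23 ± 0.06, adjusted p = 0.034), and without 38 h replicate 1 its adjusted p was 0.076. The coactivator genes Ncoa1 (0.12, adjusted p = 0.14) and Crebbp (0.06, adjusted p = 0.59) did not pass.

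Of the genes for synthesis, metabolism and transport of glucocorticoids 14 were listed and 12 tested, and 2 were called (16.7%, against 10.2% of the array). The median amplitude over the 12 was 0.09, below the 0.12 of all probe sets. Mean signals of Hsd3b1, Star, Cyp11a1, Cyp11b1 and Cyp21a1 were 10880 to 12920, where medians per array were 230.6 to 268.5. The part of signal level in these amplitudes was not tested. The ACTH receptor gene Mc2r had 0.24 ± 0.04 at CT 0.4 (adjusted p = 0.0015). The efflux pump gene Abcb1a had 0.23 ± 0.05 at CT 12.5 (adjusted p = 0.026), and it did not pass within the first batch (adjusted p = 0.050) or without 46 h replicate 1 (adjusted p = 0.056). Cyp11b1, whose enzyme makes corticosterone, had an amplitude of 0.02 (adjusted p = 0.68), and Hsd11b2, whose enzyme inactivates it, 0.05 (adjusted p = 0.61). H6pd, which supplies the cofactor of the Hsd11b1 enzyme, had 0.12 (adjusted p = 0.25).

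**Figure D4:**
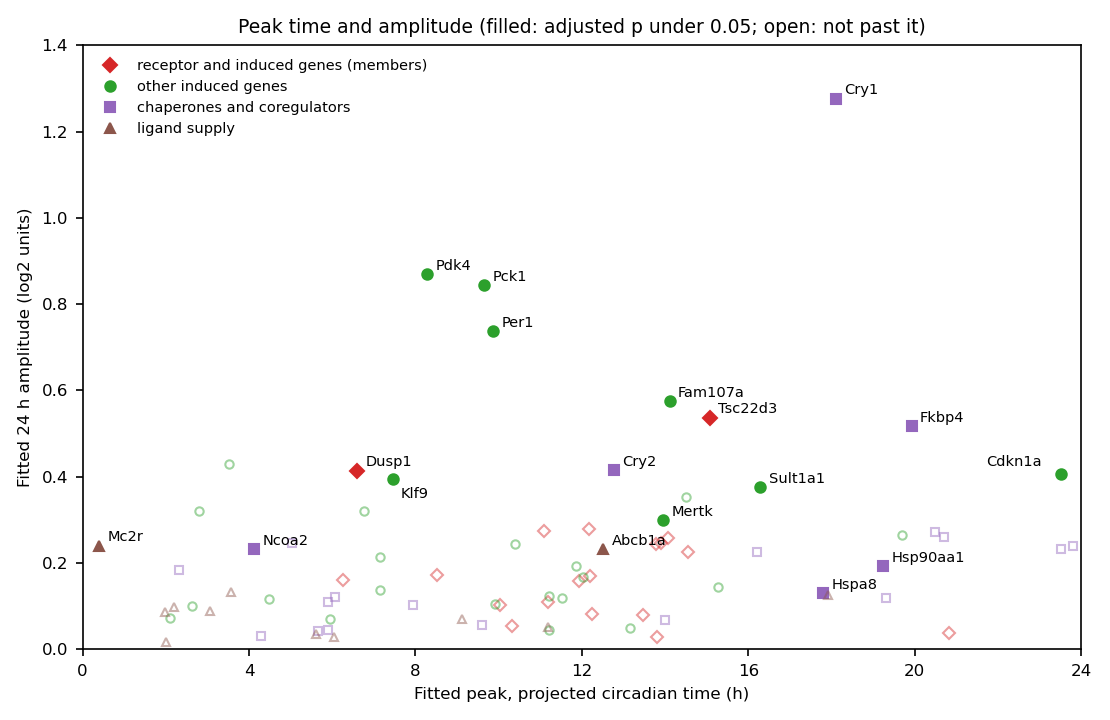
Fitted peak time (horizontal, projected circadian time in h) and fitted 24 h amplitude (vertical, log2 units) of the 19 member probe sets and of the tested genes of the other lists, without a batch term. Filled symbols have an adjusted p below 0.05: Dusp1 (CT 6.6) lies near Klf9 (CT 7.5), and Tsc22d3 (CT 15.1) near Fam107a (CT 14.1) and Mertk (CT 13.96).

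The genes whose profiles were most like those of the called members were found by Pearson correlation over the 18 profiles, each array batch centred on its own mean. These values are descriptions over profiles that share arrays and times, and they were picked as the highest of all genes. For Tsc22d3 1425557_x_at they were Maco1 (r = 0.94, peak CT 14.4), Adamts1 (r = 0.94, CT 14.5) and Baz1b (r = 0.94, CT 15.8). For Dusp1 they were Btg2 (r = 0.88, CT 9.3), Junb (r = 0.87, CT 7.8) and Gadd45b (r = 0.86, CT 7.5), all 3 of which are known as genes that respond early to stimuli. The peaks given are from the fit without a batch term, in which the cosine of Baz1b was not called (adjusted p = 0.089). With the block Baz1b was called (CT 15.2, adjusted p = 5.6e-04), and Btg2, Junb and Gadd45b peaked at CT 8.0, 7.0 and 6.4. For orientation, the clock gene Arntl peaked at CT 22.5 ± 0.4 with an amplitude of 2.18 ± 0.24, and the clock output gene Dbp at CT 9.6 ± 0.3 with 2.18 ± 0.16. The rhythms of the members were thus smaller than those of these clock genes in amplitude, by more than their SE.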

How the data were processed

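Whole-adrenal RNA was measured on 24 Affymetrix arrays. The authors deposited 1 linear intensity per probe set and array, and their summarisation and scaling were not given in the sources used here. Medians per array lay between 230.6 and 268.5, and no further normalization was applied. Values were taken as log2(intensity + 51), 51 being the 10th percentile, which understates ratios at low signal. Near-copy arrays were averaged (18 profiles), and the batch was set by a ThrX-3 signal above 300. limma 3.58.1 (in R 4.3.3, with version 1.17.8 of data.table) tested a 24 h cosine and sine (moderated F, trend) over all probe sets at or above the 40th percentile, with Benjamini-Hochberg adjustment and a threshold of 0.05. The same tool tested differences between circadian times, CT 18 against 10, and a 12 h component. The scripts were tested on simulated data. Probe sets were named from the platform annotation, which can be old. The genes, lists and tests were chosen with earlier results of these data known. All probe sets of the 9 genes are named. From each other list the text names up to 6 passing genes with the lowest p and up to 3 well-known others (Pdk4 and Pck1, which also passed, were added after their values were seen), the 3 profiles most like each called gene, and Arntl, Per2 and Dbp. Alternatives covered offset, filter, normalization, batch, near-copies and left-out profiles. The number of arrays limits the precision.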

Additional observations from a re-analysis of the deposited data

How the results depend on the processing

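The count of rhythmic probe sets among the 19 was 2 under other offsets, filters, limma without the trend and the highest probe set per gene, and 2 without each profile in turn. It was 3 after quantile normalization. It was 6 with the batch as a block (6 also without 78 h replicate 2, 5 without the 4 profiles with Acta1 above 1000) and 6 within the first batch. With all 24 arrays taken as independent it was 5, and 4 with the replicate block. The replicate numbers were read from the array titles, where an added B was taken as 2, and the labels pair no animals. With 1 array per time point the count was 0 (arrays numbered 2) or 1 (arrays numbered 1). Under these same settings, in that order (24 arrays, replicate block, arrays numbered 2, arrays numbered 1), the induced genes gave 13, 13, 0 and 1 against 8, the chaperones and coregulators 11, 10, 1 and 1 against 6, the ligand genes 3, 3, 0 and 0 against 2, and CT 18 against 10 gave 3, 3, 0 and 2 against 1. The 12 h component gave 7 and 6 over 24 arrays, 1 with the block, 3 with the block without 78 h replicate 2 and 2 without the Acta1 profiles, against 0. The induced genes gave 5 within the first batch. CT 18 against 10 gave 0 without a filter. Differences over the CT gave 3 against 10 with the arrays numbered 2, and 6 with 1 probe set per gene. Pairs of probe sets whose ratio was called for a cosine were 3 within batches, against 1. Leaving out 1 profile gave 6 to 10 induced genes, 5 to 7 coregulators, 1 to 2 ligand genes, 9 to 12 differences, 0 to 2 calls for CT 18 against 10, and 0 to 1 for the 12 h component. The share of the whole array was taken only for the main fits, for the 24 h rhythm with the block and for the first batch. The other counts have no such share beside them, so they do not show whether the genes moved against the array. The peaks of the 2 probe sets called without a batch term moved by less than 6 h in these fits, whereas fitted peaks without a call could turn (Hsd11b1 from CT 13.8 to CT 2.27 with the block). The cause of these changes was not tested, beyond the smaller number of arrays where 1 of each time point was left out.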
